A study of Bos taurus with 86 samples.

Results

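The genes described are CDH1, EPCAM, CLDN1 and DSC2, which encode proteins that hold epithelial cells together at their lateral surfaces. They were chosen as every array row whose only gene symbol in the platform annotation is one of these names. This gave 12 rows, from 6 cDNA clones, among 16416 rows on the array, and 4 of 4452 named genes. After a filter on missing values each gene was measured by 1 clone: AW463648 for CDH1, AW461992 for EPCAM, AW463346 for CLDN1 and AW464398 for DSC2. The remaining clones, AW464160 for CDH1 and BF040486 for CLDN1, were measured in too few embryos of at least 1 group and are described on their own.

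Each sample is the RNA of 1 bovine embryo, hybridised to a 2-colour cDNA array together with a common reference RNA. The title of the series names the effect of in vitro maturation, fertilization and culture on gene expression as the question. The embryos were labelled IVF (15 embryos, read as in vitro fertilization), IVD (14 embryos, an abbreviation that the labels leave unexplained) or AI (14 embryos, read as artificial insemination). No breed, dam, sire, age or developmental stage is given in the sources used here, and the reference RNA, which carries 1 name on all 86 arrays, is not described further. RNA of embryos was amplified linearly in 3 rounds and that of the reference in 2. IVD embryos 12_1 to 12_4 share a number, and no label states separate origins. Every test here counted the embryos as independent and used only the spread among these embryos. If some of them share an origin, the p-values may be too small.

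In the bovine blastocyst the outer cells form the trophectoderm, a polarised epithelium that surrounds the inner cell mass and pumps fluid into the blastocoel cavity. Its cells are held together by adherens junctions, where cadherins bind across the cell border and anchor to actin through catenins. Tight junctions, built around claudins, seal the space between the cells, and desmosomes, built around desmocollins and desmogleins, tie their keratin filaments together.

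Each value is a log2 ratio of embryo over reference, the mean of the embryo's 2 arrays with exchanged dyes, after each array was centred on its median. The labels leave the direction of the ratio unstated. Marker genes made Cy5 over Cy3 the likely reading, in which a positive value means more RNA in the embryo than in the reference, and with the opposite reading all signs below would turn. Trophectoderm markers other than junction genes had a median of 2.12, with 14 of 18 measured genes above 0. The list median ran from 1.44 to 2.34 over IVF embryos, from 1.11 to 2.81 over IVD embryos and from 1.503 to 2.67 over AI embryos. Markers of mesenchyme and matrix had a median of -2.84 (1 of 8 above 0) and those of blood and immune cells -1.05 (0 of 3), against -0.07 over all 6278 features. Markers of the inner cell mass (2 of 3 above 0), hypoblast (1 of 4) and cumulus and granulosa cells (1 of 3) were near 0 in the median, 1 oviduct and endometrium marker was measured, and no maternal oocyte marker was. Rows without a value were counted per array and averaged over the 2 arrays of each embryo. These means ran from 3077 to 5100 in IVF, from 1002 to 1872 in IVD and from 3613 to 5713 in AI embryos. Because an embryo's value needs both arrays, the rows that lack one are at least as many. The 2 arrays of an embryo correlated at r = 0.72 to 0.91 across rows in IVF, 0.59 to 0.77 in IVD and 0.82 to 0.91 in AI. The part of these differences between the groups in the results below was not tested.

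CDH1, EPCAM and CLDN1, each by its kept clone, were higher in IVD embryos than in AI embryos, and DSC2 was lower. The test called 4 of 4 genes in this comparison, 3 of them higher and 1 lower, against 46.5% of all features (25.5% higher and 21% lower). In IVF embryos compared with IVD embryos, the same 4 genes were called with the opposite signs, DSC2 higher and the others lower, against 47.6% of all features (22.3% higher and 25.2% lower). These comparisons share the IVD embryos, so the opposite signs are not separate observations. Between IVF and AI embryos 0 of 4 genes passed limma's test, against 37.7% of all features (19.9% higher and 17.7% lower). At an unadjusted p under 0.05 it was 1 of 4, CLDN1 (limma, p = 0.0448). The share of all features at that looser threshold was at least 37.7%, as adjustment never lowers a p. Calls were frequent over the whole array, so the count by itself says little about these genes, and the values of each follow.

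**Figure D1:**
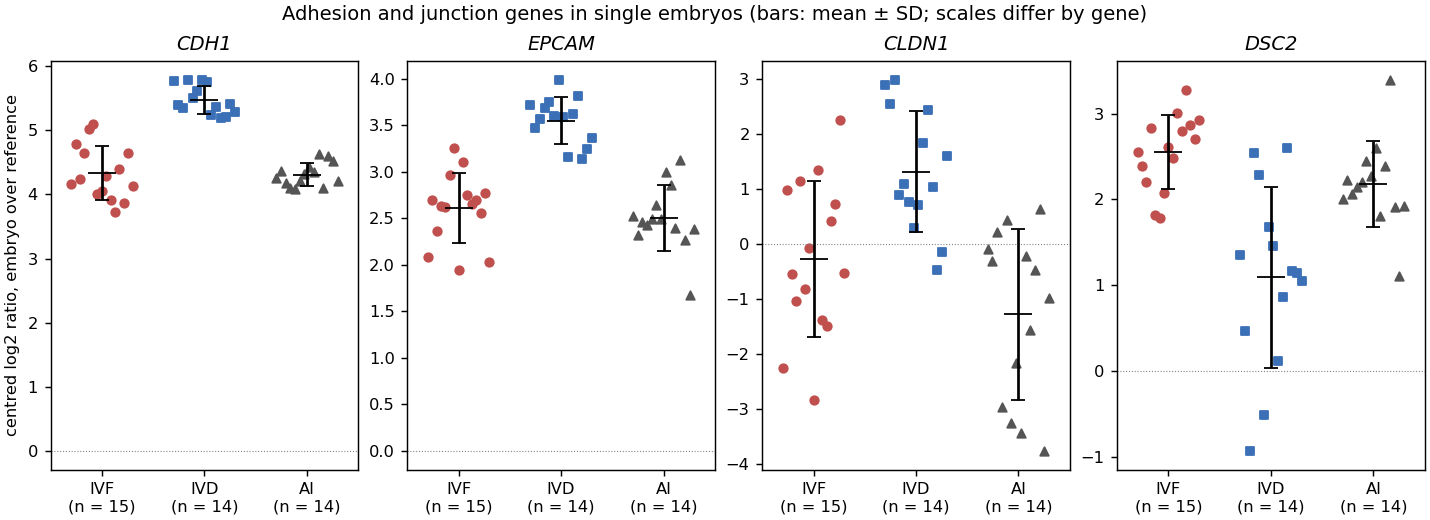
Centred log2 ratio of embryo over reference for CDH1, EPCAM, CLDN1 and DSC2 (vertical axis) in each IVF, IVD and AI embryo (1 point per embryo), with bars for the mean ± SD and a scale of its own for each gene. IVD embryos lie above all AI embryos for CDH1 and EPCAM, while CLDN1 is widely spread in every group and DSC2 reaches below 0 only in IVD.

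CDH1 encodes E-cadherin, the calcium-dependent adhesion molecule of the adherens junction, which in mammalian embryos is needed for compaction and for an intact trophectoderm. Its ratio was 3.72 at the lowest, 4.24 at the median and 5.10 at the highest in IVF embryos. In IVD embryos it was 5.18, 5.40 and 5.79, and in AI embryos it was 4.08, 4.28 and 4.63. All 14 IVD embryos therefore lay above every IVF and every AI embryo. The IVF embryos lay on both sides of the AI range, 5 of 15 above it and 5 of 15 below it. These IVF counts depended on the dye. With the embryo in Cy3, 3 of 15 lay above the AI range and 5 of 15 below it. With the embryo in Cy5, 4 of 15 lay above it and 1 of 15 below it. IVF embryo 7 read 4.90 in Cy3 and 3.11 in Cy5. How much of the IVF spread came from disagreement between the arrays of an embryo was not tested. Groups that did not overlap were found for 2.84% of all features between IVD and AI (1.1% with IVD higher) and for 3.28% between IVF and IVD (1.78% with IVF lower).

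The mean was 4.33 ± 0.42 in IVF (SD, n = 15), 5.47 ± 0.22 in IVD (n = 14) and 4.31 ± 0.18 in AI (n = 14). CDH1 was 1.16 ± 0.12 (SE) higher in IVD than in AI embryos on the log2 scale, a 2.24-fold difference (95% interval 0.93 to 1.40; limma adjusted p = 7.67e-11). It was lower by 1.14 ± 0.11 in IVF than in IVD embryos (limma adjusted p = 5.32e-11). Between IVF and AI embryos the difference was 0.02 ± 0.11, with an interval of -0.21 to 0.25 (limma adjusted p = 0.898). The order of the levels was thus IVD above IVF and AI, which did not differ beyond their spread. CDH1 was also among the highest ratios on the array, since its mean over the groups of 4.70 exceeded that of 99.9% of features, or would lie below that share of them if the ratio ran the other way. Quantile normalization, which forces all arrays to the same distribution, reduced the IVD minus AI difference to 0.49 (limma adjusted p = 0.00146) and the IVF minus IVD difference to -0.41 (limma adjusted p = 0.00554).

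The separation of IVD from AI in CDH1 was present with either dye. With the embryo in Cy3 the mean was 4.12 in IVF, 5.33 in IVD and 4.15 in AI embryos, and with the embryo in Cy5 it was 4.54, 5.61 and 4.47 in the same order. In both orientations 14 of 14 IVD embryos exceeded every AI embryo. IVF and IVD overlapped with a single dye, where 14 of 15 IVF embryos in Cy3 and 13 of 15 in Cy5 lay below the lowest IVD embryo. The duplicate spots of this clone correlated at r = 0.979 over the 42 embryos with a value for both. The other CDH1 clone, AW464160, had a value on both arrays in 5 of 15 IVF, 14 of 14 IVD and 0 of 14 AI embryos. In IVD its mean was 1.42 ± 0.48 with the embryo in Cy3 and -1.17 ± 0.32 with the embryo in Cy5 (SD, n = 14), so the sign of its ratio followed the dye. In AI it had values only with the embryo in Cy3, in 4 embryos (mean 0.50 ± 0.51, SD), so no IVD minus AI difference over both dyes could be had, and the difference within Cy3 was not tested. The CDH1 results rest on AW463648.

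EPCAM encodes the epithelial cell adhesion molecule, a membrane glycoprotein of simple epithelia that is not a cadherin. Its ratio was 1.95 at the lowest, 2.66 at the median and 3.25 at the highest in IVF embryos. In IVD embryos it was 3.14, 3.59 and 3.99, and in AI embryos it was 1.67, 2.48 and 3.12. All 14 IVD embryos lay above every AI embryo, by a narrow margin of 3.14 for the lowest IVD embryo against 3.12 for the highest AI embryo. Of all features, 2.84% had no overlap between IVD and AI (1.1% with IVD higher). Of the IVF embryos, 14 of 15 lay below the lowest IVD embryo and only 1 of 15 above the highest AI embryo.

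The mean of EPCAM was 2.61 ± 0.37 in IVF (SD, n = 15), 3.55 ± 0.25 in IVD (n = 14) and 2.503 ± 0.35 in AI (n = 14). It was 1.05 ± 0.13 (SE) higher in IVD than in AI embryos, or 2.07-fold (95% interval 0.79 to 1.30; limma adjusted p = 7.46e-09), and lower by 0.94 ± 0.12 in IVF than in IVD embryos (limma adjusted p = 3.61e-08), a difference that quantile normalization reduced to -0.61. The IVF minus AI difference was 0.11 ± 0.12 (interval -0.14 to 0.36; limma adjusted p = 0.523), and its sign followed the dye. With the embryo in Cy3 it was 0.34 (limma adjusted p = 0.0383, past the threshold), and with the embryo in Cy5 it was -0.13 (limma adjusted p = 0.531). For IVD minus AI the direction was the same in both orientations, 1.13 in Cy3 and 0.96 in Cy5, although the groups overlapped: 13 of 14 and 8 of 14 IVD embryos exceeded every AI embryo. Like CDH1, EPCAM was therefore highest in IVD, and no order was found between IVF and AI.

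**Figure D2:**
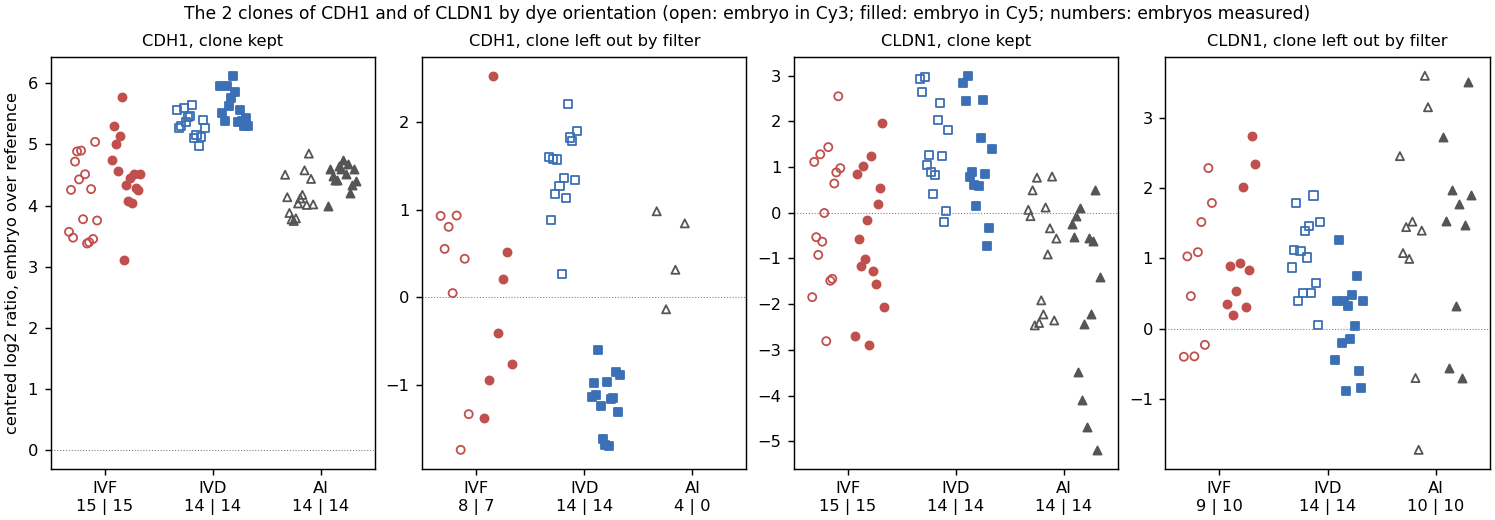
Centred log2 ratio (vertical axis) of the kept and the other clone of CDH1 and CLDN1 in each embryo, by group, with open symbols for arrays with the embryo in Cy3, filled symbols for Cy5 and the number of embryos measured under each group. The kept clones have IVD above AI with either dye, the CDH1 clone AW464160 changes sign with the dye in IVD, and the CLDN1 clone BF040486 has IVD no higher than AI.

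CLDN1 encodes claudin-1, a strand-forming protein of tight junctions. It had the largest SD of the 4 genes in each group, with a ratio of -2.85 at the lowest, -0.54 at the median and 2.25 at the highest in IVF embryos. In IVD embryos it was -0.47, 1.06 and 2.99, and in AI embryos it was -3.77, -0.73 and 0.64. The lowest and highest embryos thus differed 34.2-fold in IVF, 11.0-fold in IVD, where DSC2 spanned 11.54-fold, and 21.2-fold in AI. These spans depend on the dye, since AI embryos ran from -2.46 to 0.79 in Cy3 and from -5.185 to 0.49 in Cy5. IVF embryo 19 read 0.97 in Cy3 and -2.06 in Cy5. The ratio was above 0 in 6 of 15 IVF, 12 of 14 IVD and 3 of 14 AI embryos. The groups overlapped, but 11 of 14 IVD embryos lay above the highest AI embryo, as did 5 of 15 IVF embryos.

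The mean of CLDN1 was -0.28 ± 1.43 in IVF (SD, n = 15), 1.31 ± 1.10 in IVD (n = 14) and -1.29 ± 1.56 in AI (n = 14). It was 2.60 ± 0.50 (SE) higher in IVD than in AI embryos, or 6.06-fold (95% interval 1.60 to 3.60; limma adjusted p = 3.86e-05). It was lower by 1.59 ± 0.49 in IVF than in IVD embryos, or 3.02-fold (limma adjusted p = 0.00639), a call that was lost with clusters of dye bias as a block (-2.00, limma adjusted p = 0.147). The IVF minus AI difference of 1.01 ± 0.49 (interval 0.02 to 1.99) did not pass the threshold over all features (limma adjusted p = 0.0969), although it did without IVF embryo 9 (1.19, limma adjusted p = 0.0459). The means therefore ran from IVD through IVF to AI, and only the neighbours IVF and AI were not told apart by the test. The SD of CLDN1 exceeded that of 99.9% of features in IVF, 99.1% in IVD and 99.9% in AI, where the median feature had an SD of 0.42, 0.33 and 0.40.

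The second CLDN1 clone did not show the same differences. BF040486 had values on both arrays in 6 of 15 IVF embryos (mean 1.44 ± 0.81, SD), 14 of 14 IVD embryos (0.54 ± 0.57) and 7 of 14 AI embryos (1.91 ± 1.08). When a row needed only 2 embryos per group, this clone was lower in IVD than in AI embryos, by -1.39 ± 0.33 on the log2 scale (SE; limma adjusted p = 0.00128), and 0.87 ± 0.35 higher in IVF than in IVD embryos (limma adjusted p = 0.0444). Its IVD minus AI difference was -0.44 with the embryo in Cy3 (limma adjusted p = 0.37), -1.33 with the embryo in Cy5 (limma adjusted p = 0.00507) and -0.53 when values present on 1 array were kept (limma adjusted p = 0.285). AI embryo H3 shows the disagreement: AW463346 read -3.77 (-2.36 in Cy3 and -5.185 in Cy5) and BF040486 read 3.55 (3.60 and 3.51). With AW463346 the IVD minus AI difference was 2.24 in Cy3 and 2.96 in Cy5. CLDN1 transcripts were thus measured as higher in IVD by the clone with values in every embryo and as lower by the clone with missing values, and which of them reports CLDN1 was not tested. Averaging both clones left CLDN1 called in IVD minus AI, at 1.198 to 1.64 log2 units. In these averages an embryo without BF040486 entered by AW463346 alone, so missing values and embryo differences are mixed. AI embryos in which BF040486 was not measured on both arrays averaged -1.56 for AW463346, against -1.01 in the other AI embryos. The part of this in the call was not tested. In 3 of the 4 settings that averaged both clones, the IVF minus IVD call was lost, with differences of -0.64, -0.86 and -0.99.

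DSC2 encodes desmocollin-2, a desmosomal cadherin. Its ratio was 1.78 at the lowest, 2.61 at the median and 3.28 at the highest in IVF embryos. In IVD embryos it was -0.93, 1.16 and 2.60, and in AI embryos it was 1.11, 2.17 and 3.40. The IVD embryos reached far below the other groups: 11 of 14 lay below the lowest IVF embryo and 6 of 14 below the lowest AI embryo. The lowest were IVD embryos 1 (-0.93) and 6 (-0.51), while the other 8 lay within the AI range, with IVD embryos 12_1 (2.60), 2 (2.54) and 5 (2.29) above the AI median.

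The mean of DSC2 was 2.56 ± 0.43 in IVF (SD, n = 15), 1.09 ± 1.05 in IVD (n = 14) and 2.18 ± 0.50 in AI (n = 14). It fell by 1.09 ± 0.26 (SE) in IVD relative to AI embryos, 2.12-fold lower (limma adjusted p = 0.000683), and was 1.46 ± 0.25 higher in IVF than in IVD embryos, or 2.76-fold (limma adjusted p = 6.93e-06). With clusters of dye bias as a block, the IVF minus IVD difference was 1.26 and was not called (limma adjusted p = 0.147). The IVF minus AI difference was 0.38 ± 0.25 (interval -0.13 to 0.89; limma adjusted p = 0.239). DSC2 thus ran opposite to CDH1 and EPCAM, and to CLDN1 as clone AW463346 measured it, with IVD lowest and IVF and AI not told apart. In single dyes IVD minus AI was -1.12 in Cy3 and -1.05 in Cy5, and the duplicate spots correlated at r = 0.995. In RNA of whole embryos, fewer cells of a type and less RNA per cell cannot be told apart.

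**Figure D3:**
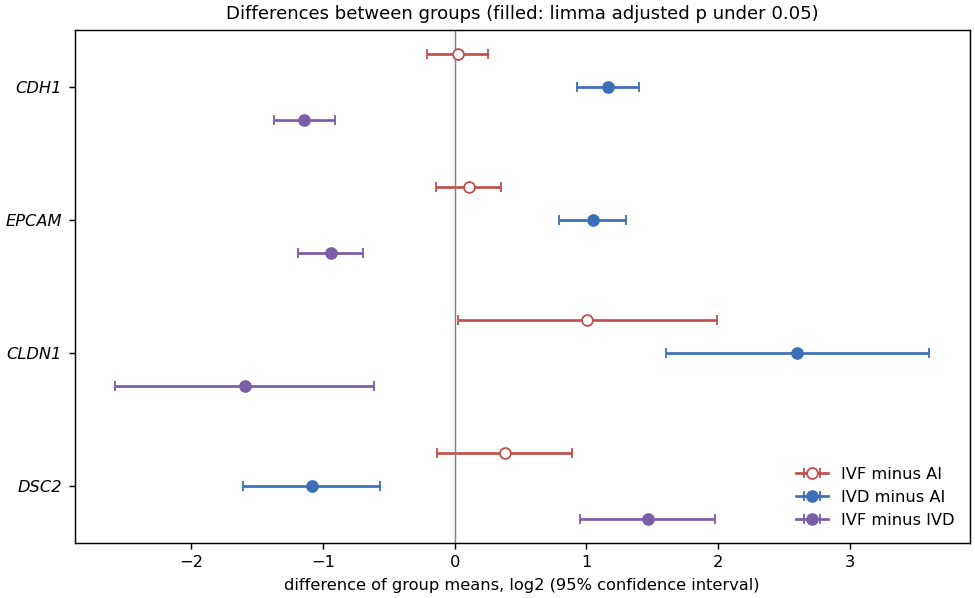
Difference in centred log2 ratio (horizontal axis) for IVF minus AI, IVD minus AI and IVF minus IVD in CDH1, EPCAM, CLDN1 and DSC2, each point with its 95% interval and filled where limma's adjusted p was under 0.05. The intervals of IVD minus AI and IVF minus IVD exclude 0 for all 4 genes, and those of IVF minus AI include 0 except for CLDN1, whose interval of 0.02 to 1.99 starts close to it.

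The spread between embryos was also compared. The permutation test was run on absolute deviations from the group median, and SDs are given for scale. DSC2 had an SD of 1.05 in IVD against 0.50 in AI, a ratio of 2.10. Its mean deviation differed by 0.45 in IVD minus AI (permutation p = 0.0371). In IVF minus IVD, with SDs of 0.43 and 1.05, the mean deviation of DSC2 differed by -0.44 (permutation p = 0.0268). CDH1 had an SD of 0.42 in IVF against 0.18 in AI, a ratio of 2.31. Its mean deviation differed by 0.19 in IVF minus AI (permutation p = 0.0167). These are 3 of 12 tests on the 4 genes and are unadjusted. With limma on absolute deviations and adjustment over all features, none of the 3 passed (adjusted p of 0.316, 0.466 and 0.652), where 0.0478% of features were called between IVD and AI and none between IVF and AI or between IVF and IVD. At an unadjusted p under 0.05, limma on the same deviations had 6.93% of features for IVF minus AI (435), 11.04% for IVD minus AI (693) and 9.96% for IVF minus IVD (625). The SD of DSC2 in IVD embryos exceeded that of 98.8% of features, against 52.3% in IVF and 67.3% in AI. How far disagreement between the arrays of an embryo added to the CDH1 spread in IVF was not tested.

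Few pairs of the genes varied together within a group. Among 18 pairs of genes within groups, 4 had an unadjusted permutation p under 0.05 for Pearson's r and 1 passed adjustment. That pair was EPCAM and DSC2 in AI embryos, with r = 0.80 (permutation p = 0.00271, adjusted 0.0488, n = 14) and Spearman's rho of 0.56 (permutation p = 0.0421, adjusted 0.296). It rests on embryos 17 and H3, which had the highest and lowest values of both genes (EPCAM 3.12 and 1.67, DSC2 3.40 and 1.11). Without those embryos r was 0.32.

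**Figure D4:**
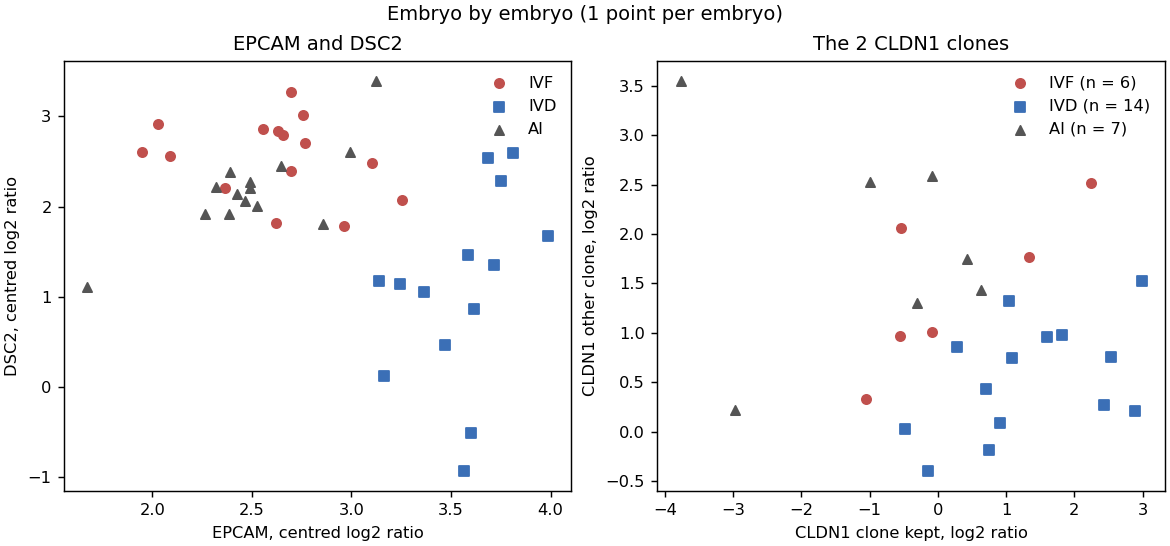
Centred log2 ratios of DSC2 against EPCAM (left) and of CLDN1 clone BF040486 against clone AW463346 (right), 1 point per embryo, with IVF, IVD and AI marked. On the left, AI embryos 17 and H3 are the AI extremes at EPCAM 3.12 and 1.67, and on the right AI embryo H3 lies at -3.77 and 3.55.

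The genes whose pattern over embryos was most like that of each of the 4 were found next. Likeness was measured as Pearson's r over 42 or 43 embryos after the group means were subtracted, among 2990 named genes, and is given without a p because all values of an embryo share its arrays. The genes nearest to CDH1 were YTHDF2 (r = 0.59), SMC3 (0.55) and GNPAT (0.55). Those nearest to EPCAM were PLS1 (0.68), which encodes an actin bundler of epithelial brush borders, SERPING1 (0.67) and SF3B1 (0.65). CLDN1 was followed by LIN7C (0.61), a scaffold of polarised cell junctions, ERLEC1 (0.61) and RPF1 (0.56). DSC2 was followed by PLAU (0.71), the urokinase protease, IGFBP7 (0.70) and CFD (0.68). For these 3 the r within IVD embryos was 0.83, 0.84 and 0.84, and within AI embryos 0.23, 0.37 and 0.31.

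The wider set of junction and epithelial genes moved in both directions. Of 42 other measured genes on 7 lists, 14 were higher and 11 lower in IVF than in AI embryos (median difference -0.04, against 0.04 over all features, of which 19.9% were called higher and 17.7% lower). In IVD compared with AI embryos 15 were higher and 9 lower (median 0.17, against 0.06, with 25.5% of all features called higher and 21% lower). In IVF compared with IVD embryos 8 were higher and 11 lower (median -0.06, against -0.01, with 22.3% called higher and 25.2% lower). The counts depend on the scaling. With the values as deposited and not centred, they were 7 higher and 4 lower, 20 and 1, and 1 and 17 in the same order of comparisons, and with quantile normalization 13 and 10, 13 and 12, and 9 and 8.

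Among 11 other measured genes of the adherens junction list, CTNND1, which encodes p120-catenin, rose by 0.88 ± 0.20 in IVF relative to AI embryos (limma adjusted p = 0.000755). CTNND1 also rose by 0.64 ± 0.20 in IVF relative to IVD embryos (limma adjusted p = 0.0073), a comparison in which CDH1 was lower. That second call was lost with the values as deposited (0.398, limma adjusted p = 0.247). The difference of CTNND1 between IVD and AI was 0.24 ± 0.21 (limma adjusted p = 0.355). ACTN1, an actin crosslinker, was lower in IVF than in AI by 0.94 ± 0.14 (limma adjusted p = 1.07e-06). In IVD minus AI 4 of the 11 were higher and 3 lower (25.5% and 21% of all features). CTNNA1, the alpha-catenin that links cadherin complexes to actin, was among the higher ones at 0.37 ± 0.10 (limma adjusted p = 0.00264) and was called in each of 5 settings of scaling and dye (0.32 to 0.63). Of the other higher ones, RHOA lost the call in 0, CDC42 in 1 and EZR in 2 of the 5 settings. The clones of RHOA differed in call, at 0.49 (limma adjusted p = 0.00185) and 0.26 (limma adjusted p = 0.097). The lower ones, ACTN1 (-0.44), NECTIN2 (-0.48) and RAC1 (-0.59), each lost the call in 2 of those 5 settings, and RAC1 was 0.0059 where only Cy5-labelled embryos were used. Rows were filtered anew for each dye, so rows absent from the main fit can enter a gene's average there. The part of such rows in the RAC1 value was not tested.

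Of 3 other measured claudins, 2 were lower in IVD than in AI embryos (21% of all features), and CLDN6 was not called (-0.13, limma adjusted p = 0.359). CLDN7 fell by 0.73 ± 0.11 and CLDN4 by 0.66 ± 0.13 in IVD relative to AI embryos (limma adjusted p = 5.50e-07 and 8.92e-05). With the values as deposited CLDN7 was -0.48 and still called, and CLDN4 was -0.41 and not called (limma adjusted p = 0.0855). PRKCI, the atypical protein kinase C of the apical polarity complex, rose by 1.11 ± 0.22 (limma adjusted p = 7.24e-05). Of 11 tight junction genes, 3 were higher and 4 lower in that comparison (25.5% and 21% of all features), and the clones of F11R disagreed in it. Of the 5 settings, PARD3 and TJP3 among the lower ones each lost the call in 3, and CGN among the higher ones lost it in 2. Here too, rows absent from the main fit can enter with a single dye, and their part in the lost calls was not tested. The clones of CGN differed in call, at 0.57 (limma adjusted p = 0.0109) and 0.31 (limma adjusted p = 0.0828). Only 2 desmosome genes besides DSC2 were measured: PERP, a desmosome-associated membrane protein, rose by 0.65 ± 0.10 in IVD relative to AI embryos (limma adjusted p = 2.91e-06), and PPL, which encodes periplakin, differed by 0.0024 ± 0.14 (limma adjusted p = 0.991). Neither was called lower in IVD, as DSC2 was.

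**Figure D5:**
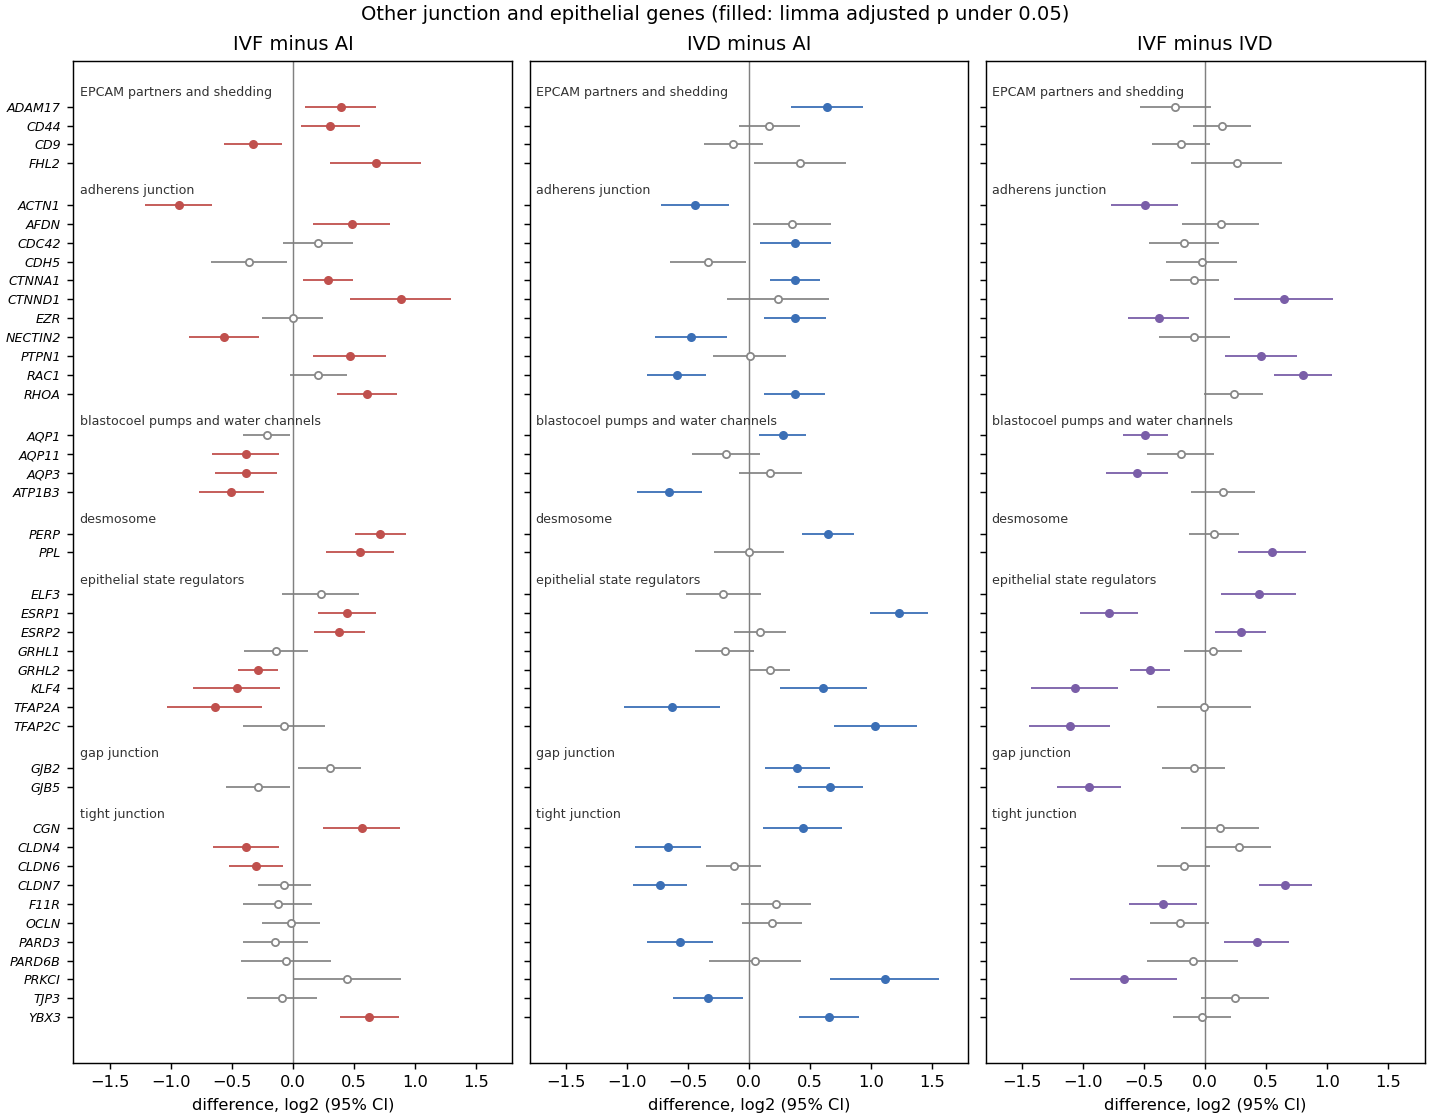
Difference in centred log2 ratio for each of the 42 measured genes of the 7 junction and epithelial lists (1 row per gene, with its 95% interval) in IVF minus AI, IVD minus AI and IVF minus IVD. Filled points passed limma's adjusted p of 0.05, and they lie on both sides of 0 in each comparison.

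Both measured connexins of gap junctions rose in IVD relative to AI embryos (25.5% of all features), GJB5 by 0.67 ± 0.13 (limma adjusted p = 7.13e-05) and GJB2 by 0.40 ± 0.13 (limma adjusted p = 0.0126). GJB5 was lower in IVF than in IVD embryos by 0.95 ± 0.13 (limma adjusted p = 8.55e-08). Among genes that cooperate with EPCAM or cleave it, ADAM17, a protease that sheds membrane proteins, rose by 0.64 ± 0.15 in IVD relative to AI embryos (limma adjusted p = 0.000446), and 3 of 4 were not called (46.5% of all features were). Of 4 blastocoel pump and water channel genes, 1 was higher and 1 lower in IVD than in AI embryos (25.5% and 21% of all features). ATP1B3, a beta subunit of the sodium pump, fell by 0.65 ± 0.13 in IVD relative to AI embryos (limma adjusted p = 0.000108), but not with the values as deposited (-0.398, limma adjusted p = 0.0658). It also fell by 0.51 ± 0.13 in IVF relative to AI embryos (limma adjusted p = 0.00239), but not in Cy3 alone (-0.24, limma adjusted p = 0.157). AQP1, a water channel, rose by 0.27 ± 0.09 in IVD relative to AI embryos (limma adjusted p = 0.0153), a call lost in 2 of the 5 settings, and was lower in IVF than in IVD embryos by 0.49 ± 0.09 (limma adjusted p = 2.63e-05), a call kept in all 5. AQP3, a water and glycerol channel, was lower in IVF than in IVD embryos by 0.56 ± 0.13 (limma adjusted p = 0.000274), but with quantile normalization the difference was -0.0159 (limma adjusted p = 0.927).

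Among 8 regulators of the epithelial state, ESRP1, an epithelial splicing factor, was highest in IVD, as CDH1 was. It rose by 1.23 ± 0.12 in IVD relative to AI embryos (limma adjusted p = 3.77e-11) and was lower in IVF than in IVD embryos by 0.79 ± 0.12 (limma adjusted p = 5.15e-07). Its IVF minus AI difference of 0.44 ± 0.12 (limma adjusted p = 0.00306) was not called with the values as deposited (0.395, limma adjusted p = 0.0758) or in Cy3 alone (0.31, limma adjusted p = 0.119). TFAP2C, a trophectoderm transcription factor, rose by 1.04 ± 0.17 in IVD relative to AI embryos (limma adjusted p = 2.83e-06). Of its clones, 1 was called at 1.88 (limma adjusted p = 1.25e-10) and the other was not, at 0.42 (limma adjusted p = 0.118). TFAP2A, its paralogue, fell by 0.63 ± 0.20 in the same comparison (limma adjusted p = 0.00794). In all, 3 of the 8 were higher and 1 was lower in IVD than in AI embryos (25.5% and 21% of all features), and the lower call, TFAP2A, was lost with the values as deposited (-0.401, limma adjusted p = 0.103).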

How the data were processed

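The deposited table holds log2 ratios, 1 column per array, made by the authors from 2-colour spots. Reading of images, background correction, normalization and the emptying of spots are steps not given in the sources used here. Of its cells, 20.1% had no value (284059 empty or null cells; 16 spots at a ceiling were also set to missing), and array medians ran from -2.22 to 1.06. Dye-swapped arrays anticorrelated on all 43 embryos (r from -0.91 to -0.59), and no 2 arrays were identical.

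The median of the 5558 rows present on all arrays was subtracted from each array. The sign of an array was reversed where the embryo carried Cy3, and both arrays of an embryo were averaged into 1 replicate. Rows were kept with values on both arrays in at least 7 embryos of every group (10757 rows), and rows with 1 gene symbol were averaged, giving 6278 features, 3433 of them named. Gene names are those of the platform annotation: 11196 rows have 1 symbol, 190 several and 5030 none listed; 11182 match a RefSeq gene identifier. Clones were also fitted apart (6794 clones). All 86 value columns were used.

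Tests used limma 3.58.1 (R 4.3.3), as 1 model of 3 group means over all 43 embryos, two-sided, Benjamini-Hochberg over all features, threshold 0.05. It was tested on simulated data. Spread and correlations were tested with 1e+05 permutations. Named genes are the 4 chosen genes, up to 3 called genes of largest change per junction list and comparison, and the 3 genes most like each of the 4. The text gives some of these, selected after their values were seen. CTNNA1, CDC42, EZR, RHOA, CLDN6, CGN, PARD3 and TJP3 were named for the IVD minus AI comparison outside this rule, also after their values were seen. The genes and lists were chosen with earlier results of these data known. The number of arrays limits the precision. Alternatives covered centring, dye, filters, averaging of clones, blocks, weights and single embryos left out. Figures were drawn with matplotlib 3.10.9.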

Additional observations from a re-analysis of the deposited data

How the results depend on the processing

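All 15 alternatives and every fit without 1 embryo kept the IVD minus AI calls of CDH1 (0.49 to 1.42 over the alternatives), EPCAM (0.78 to 1.30), CLDN1 (1.198 to 2.92) and DSC2 (-1.25 to -0.83). For CLDN1 the values up to 1.64 came from averages of both clones, and clone BF040486 alone was lower in IVD (-1.39 with 2 embryos per group). With embryo numbers as a replicate block, CDH1 was 1.16 in IVD minus AI and 2906 features passed. The block changed no call of the 4 genes. Across groups, 21 same-numbered pairs of embryos correlated at r = -0.17 to 0.16, which gave no sign that the numbers pair embryos of different groups. IVD embryos 12_1 to 12_4 counted as separate numbers there, so the block cannot show whether they depend on each other. Without them, IVD minus AI was 1.24 for CDH1, 1.11 for EPCAM, 2.92 for CLDN1 and -1.245 for DSC2, each still called. The IVF minus IVD calls of CLDN1 were lost with the embryo in Cy5 alone (-0.64), with 2 embryos per group (-0.99), with values on 1 array kept (-0.86), where the second clone enters the average, and with clusters of dye bias as a block (-2.00). The last also ended the DSC2 call (1.26). Cluster 1 held 11 IVF and 1 AI embryos and cluster 2 held 2 IVF, 14 IVD and 13 AI, so IVF and the clusters can hardly be told apart. In IVF minus AI the signs turned for CDH1 (-0.0247 in Cy3 alone, -0.0331 to 0.0653 without single embryos), EPCAM (0.34 and past the threshold in Cy3, -0.13 in Cy5, -0.17 with the clusters) and DSC2 (-0.10 with the clusters), and CLDN1 ran from 0.81 to 1.19 without single embryos and down to 0.34 (values on 1 array kept), 0.40 (Cy3 alone) and 0.54 (2 embryos per group), where the second clone enters, and to 0.56 with the clusters. Features past the threshold in IVF minus AI were 1325 as deposited and 515 with the clusters, against 2365. They were 879 with the clusters in IVF minus IVD, against 2986, and 1571, 1770 and 1880 with rows measured in all embryos, where fewer rows are tested. As deposited, all features shifted by 0.32 in IVD minus AI and -0.27 in IVF minus IVD, and 85.3% and 17.5% of calls were higher, against 54.9% and 47.0%. Quantile normalization moved EPCAM in IVF minus IVD to -0.61. In Cy3 alone, the difference in absolute deviation was -0.0891 for CDH1 in IVD minus AI, 0.37 for CDH1 in IVF minus IVD (permutation p = 0.00038) and 0.19 for CLDN1 in IVF minus AI. Apart from the cases where a second clone enters, the cause was not tested.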

Other observations

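The genes nearest to DSC2 were not lower in IVD than in AI embryos, as DSC2 was, but had higher means in IVF than in IVD embryos, as DSC2 did. PLAU averaged 0.49 ± 0.60 in IVF (SD, n = 15), -0.22 ± 1.30 in IVD (n = 14) and -1.18 ± 0.53 in AI embryos (n = 14). It was 1.68 ± 0.31 (SE) higher in IVF than in AI embryos (limma adjusted p = 4.83e-05) and 0.97 ± 0.32 higher in IVD than in AI embryos (limma adjusted p = 0.0117), where DSC2 was lower. IGFBP7, a secreted binding protein, was 0.64 ± 0.16 higher in IVF than in AI embryos (limma adjusted p = 0.00121), and its IVD minus AI difference was 0.24 ± 0.16 (limma adjusted p = 0.213). CFD, the complement protease factor D, was 0.38 ± 0.12 higher in IVF than in AI embryos (limma adjusted p = 0.0128) and differed by 0.14 ± 0.12 between IVD and AI (limma adjusted p = 0.356). In IVF minus IVD, IGFBP7 was called at 0.40 ± 0.16 (limma adjusted p = 0.0305), while PLAU at 0.71 ± 0.31 (limma adjusted p = 0.0582) and CFD at 0.24 ± 0.12 (limma adjusted p = 0.107) did not pass. These genes were chosen for their likeness to DSC2 within groups, and their differences between groups were not part of that choice.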
